A study of Homo sapiens with 9 samples.

Results

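MHC class I antigen presentation was described here by 9 genes of the 62703 in the deposited expression table: the heavy chain genes HLA-B, HLA-C and HLA-E, the shared light chain gene B2M, the peptide transporter genes TAP1 and TAP2, the tapasin gene TAPBP, and the immunoproteasome genes PSMB8 and PSMB9. Each was taken as the row of the table with that gene name, and none was listed more than once. Messenger RNA had been sequenced from cells labelled HepG2, an established human line from a liver carcinoma, in 3 groups of 3 libraries. Palmitic acid, the common saturated fatty acid of the diet, was given to the cells of all 9 libraries at 750 µM for 24 h. One group (PA) had no further agent, another (PA_Cur) then received 20 µM curcumin, a plant polyphenol, for 12 h, and the last (PA_Cur_Cu) received 20 µM curcumin together with 5 µM CuCl2, a copper salt, for 12 h. The labels describe no vehicle, no group without palmitic acid and no further 12 h of culture for the PA group, so that curcumin and the added time cannot be told apart. They do not say that the 3 libraries of a group came from separate cultures, and the p-values then measure the spread between these libraries only, which may be technical. The series is titled as a test of curcumin or a curcumin-copper complex on palmitic acid-treated cells.

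MHC class I molecules present peptides from inside a cell to CD8+ T cells. The proteasome cuts proteins into peptides, the transporter made of TAP1 and TAP2 carries them into the endoplasmic reticulum, and tapasin holds the empty class I molecule beside the transporter until a peptide is bound. A heavy chain and beta-2-microglobulin, the product of B2M, make up the molecule that reaches the cell surface; HLA-B and HLA-C are classical heavy chains, and HLA-E is a non-classical one that is also read by natural killer cells. PSMB8 and PSMB9 replace the catalytic subunits PSMB5 and PSMB6 in the immunoproteasome. Interferons are known to raise this whole set of genes through IRF1 and the transactivator NLRC5, and hepatocytes at rest are known for low class I expression.

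The values were TPM, a unit in which reads are scaled to gene length and to a fixed total per library. Between 13208 and 13737 genes reached 1 TPM per library, and the depth behind the values is unknown. Genes of the mitochondrial genome took 10.1% to 13% of the TPM in PA, 10.4% to 12.4% in PA_Cur and 10.7% to 11.8% in PA_Cur_Cu. Correlations of log2 values between libraries were 0.971 to 0.986 within groups and 0.966 to 0.985 between groups. Of 15 hepatocyte markers, 13 averaged under 1 TPM and 6 were listed at 0 in all 9 libraries (ALB, APOA2, APOB, APOC3, TTR and FGB), so that the label of a liver line was not matched by these markers, and the cells are called by their label only. The markers summed to 12.8 to 14.0 TPM in PA, 11.6 to 14.1 in PA_Cur and 12.0 to 12.7 in PA_Cur_Cu. Of 11 leukocyte and Kupffer cell markers, 9 averaged under 1 TPM, 4 were listed at 0 throughout (CD163, CD3E, MS4A1 and CLEC4F), PTPRC, the pan-leukocyte marker, was 0 to 0.03 TPM, and the sums were 8.51 to 10.7, 8.78 to 11.0 and 8.38 to 9.42 TPM. Of 7 dendritic cell markers, 6 averaged under 1 TPM and 2 were listed at 0, and their sum was 2.13 to 3.48 TPM in PA, 4.15 to 4.56 in PA_Cur and 4.38 to 5.13 in PA_Cur_Cu, most of it CD83 at a mean of 3.64 TPM. The sums of endothelial markers (0.5 to 1.52, 0.39 to 0.9 and 0.39 to 0.77 TPM) and fibroblast markers (15.9 to 21.5, 19.1 to 22.9 and 15.5 to 22.8 TPM) overlapped between groups. The part of any of these in the results was not tested.

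In the GENCODE release 29 annotation of GRCh38, 8 of the 9 genes lie in the MHC region of chromosome 6 and B2M lies on chromosome 15 (44711487 to 44718877, plus strand). HLA-E stands at 6:30489467-30494205 on the plus strand. HLA-C (6:31268749-31272130) and HLA-B (6:31269491-31357188) are both on the minus strand, and the HLA-B gene model overlaps that of HLA-C. TAP2 (6:32821833-32838780, minus), PSMB8 (6:32840717-32844703, minus), TAP1 (6:32845209-32853978, minus) and PSMB9 (6:32844136-32859585, plus) stand side by side, and TAPBP stands at 6:33299694-33314387 on the minus strand. The start sites of TAP1 and PSMB9 in RefSeq are 488 bases apart and point away from each other, and the PSMB9 gene model spans TAP1 on the opposite strand and overlaps the 5′ part of PSMB8, also on the opposite strand. The library kit keeps strand, but whether the counting used it is not given in the sources used here. Reads of the related heavy chain genes, and of overlapping models, could have been divided between them by the estimation step, so these levels are uncertain to that extent. Reads from HLA alleles that differ from the reference may also be placed less completely; the size of this was not measured.

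RefSeq promoter windows (GRCh38.p14) were matched for 8 of the 9 genes, all but HLA-E, and the 250 bases before the start site were searched on both strands for 3 short letter patterns of factors known to act on class I genes. These were GAAA, any 2 bases and GAAA again (the core of an interferon-response element, bound by IRF factors), TGACGC (part of the X2 box, in the promoter module at which NLRC5 acts) and the NF-kB motif. They occurred in 3.02%, 7.67% and 5.21% of all 35116 windows of that length. HLA-B, which passed the tests below, and HLA-C, which did not, are shown because both held the NF-kB and the X2-type letters, spaced nearly alike. B2M is shown as a member with a pair of overlapping interferon-type matches beside an NF-kB match. TAP1 and TAPBP, described below, also held such a pair and an NF-kB match. Each stretch runs 5′ to 3′ on the gene's own strand from 190 to 51 bases before the start site, and capitals mark the matched letters. HLA-B was read at chr6:31357230-31357369, HLA-C at chr6:31272143-31272282 and B2M at chr15:44711327-44711466.
HLA-B: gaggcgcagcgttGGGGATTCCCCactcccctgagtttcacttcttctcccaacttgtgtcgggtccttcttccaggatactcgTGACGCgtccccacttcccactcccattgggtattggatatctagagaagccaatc
HLA-C: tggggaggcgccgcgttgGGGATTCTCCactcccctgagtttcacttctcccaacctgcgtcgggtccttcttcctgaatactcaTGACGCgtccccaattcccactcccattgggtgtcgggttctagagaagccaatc
B2M: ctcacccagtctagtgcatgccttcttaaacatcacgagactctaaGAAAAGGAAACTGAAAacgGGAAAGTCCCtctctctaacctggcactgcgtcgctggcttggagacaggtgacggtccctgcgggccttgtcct

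In HLA-B overlapping NF-kB matches begin 177 and 176 bases and the X2-type letters 106 bases before the start site, and in HLA-C single matches begin 172 and 105 bases before it. In B2M the interferon-type matches begin 144 and 138 bases and the NF-kB match 125 bases before it. The later NF-kB letters GGGATTCCCC of HLA-B and GGGATTCTCC of HLA-C differ at 1 of 10 positions. Neither heavy chain window held an exact match to the interferon-type letters. Both printed heavy chain stretches hold tttcacttc, which on the other strand reads GAA, 2 bases and GAAA. The exact pattern passes over such a shorter form, so its absence does not show that an interferon element is lacking there. TAP1, TAP2 and TAPBP held exact matches. Their 30-base stretches are shown because TAP1 and TAP2, subunits of 1 transporter, both carry a match while only TAP1 passed the tests below. TAP1 was read at chr6:32853815-32853844, TAP2 at chr6:32838782-32838811 and TAPBP at chr6:33314079-33314108, all on the minus strand. In TAP1 the match lies on the other strand and so reads TTTC, 2 bases and TTTC.
TAP1: ggccgcTTTCGATTTCGCTTTCccctaaat
TAP2: ttggctggggaagcGAAAGCGAAAgctgcc
TAPBP: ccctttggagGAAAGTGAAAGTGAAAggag

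The TAP1 stretch holds a pair of overlapping matches beginning 134 and 128 bases before the start site, the TAPBP stretch a pair beginning 20 and 14 bases before it, and TAP2 a single match 58 bases before it. TAP1 and TAPBP each also held 1 NF-kB match, at 72 and 56 bases, and TAP2 an X2-type match at 35 bases. The TAP1 and TAPBP stretches lie inside the longer GENCODE models of these genes, before the RefSeq start site but not before every annotated transcript. The TAP2 stretch lies before the whole GENCODE model of TAP2. All 3 short stretches overlap annotated UTR features, and the gene to which these belong was not recorded. A further RefSeq window of TAP1 held none of the 3 patterns. PSMB8 and PSMB9 held no exact match to the interferon-type letters in these windows. A match describes the letters only and says nothing of binding in these cells.

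B2M was the highest, with a mean of 1988 TPM, followed by HLA-C (242), HLA-B (114), HLA-E (43.9), TAPBP (35.4), TAP1 (21.1), TAP2 (14.0), PSMB8 (1.10) and PSMB9 (0.301). The order held in each of the 9 libraries. The ranges of B2M, HLA-C, HLA-B and HLA-E over all libraries did not overlap. The ranges of neighbours did overlap between HLA-E and TAPBP (39.1 to 52.0 against 31.4 to 45.1 TPM), between TAPBP and TAP1, between TAP1 and TAP2, and between PSMB8 and PSMB9. Light and heavy chains and the loading machinery were therefore listed well above 1 TPM, while PSMB8 and PSMB9 were near or under it. The plot of TPM by library shows each gene on its own scale.

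**Figure D1:**
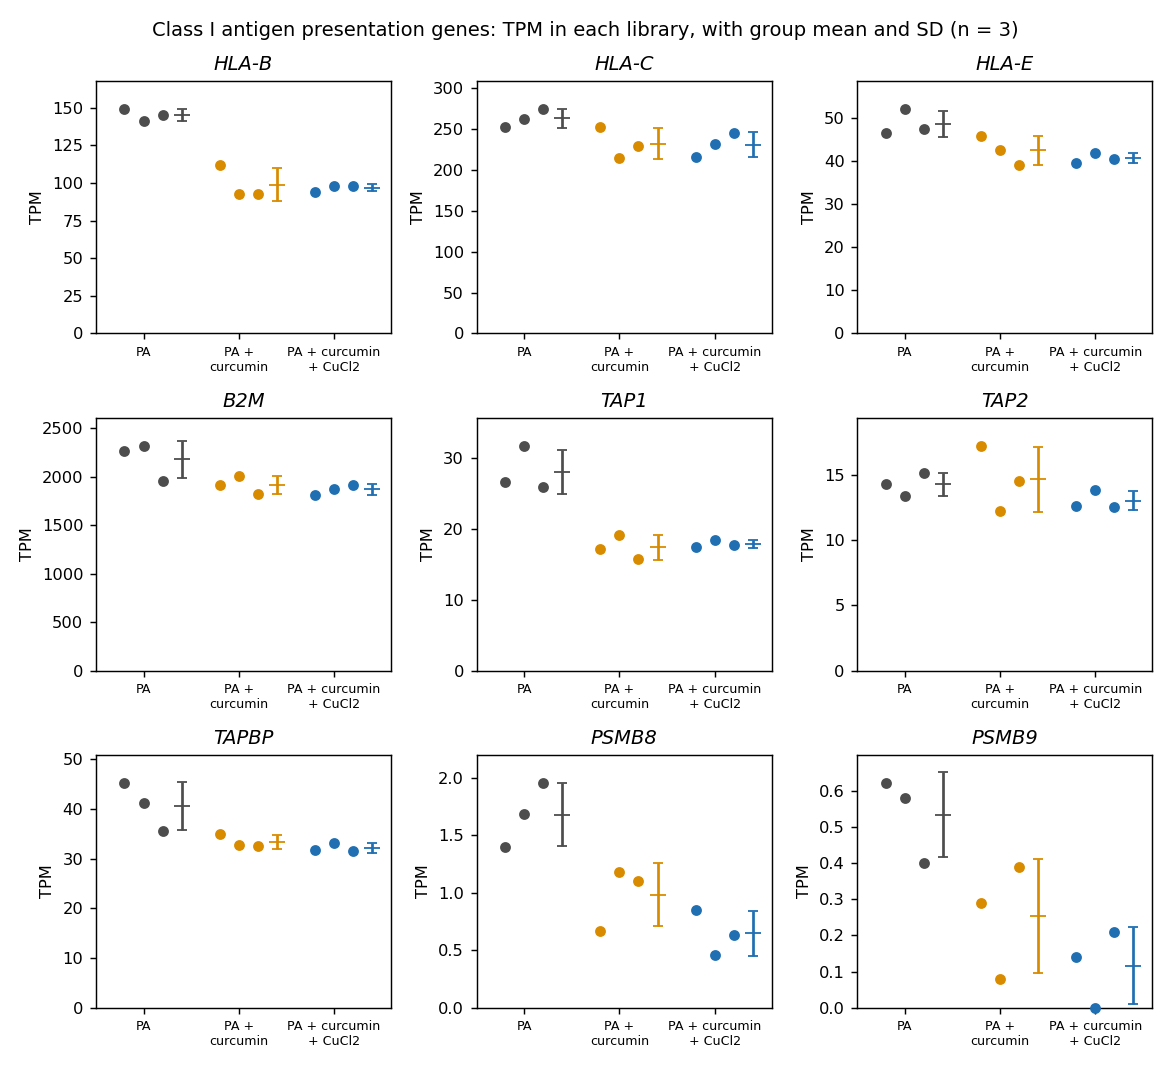
TPM of the 9 class I presentation genes (y axis, linear, 1 panel per gene) in the 3 libraries of PA, PA_Cur and PA_Cur_Cu; points are libraries, the bar is the group mean and the error bar 1 SD. For HLA-B and TAP1 the PA points stand well clear above both curcumin groups (HLA-B 141 to 149 against 92.4 to 112 TPM), whereas for TAP2 the 3 groups overlap.

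Tests were made with limma on log2(TPM + 1) over the 13443 genes that averaged 1 TPM or more across libraries, and a gene was called at an adjusted p under 0.05. The 9 genes were chosen with earlier results of these data known, so the shares over all genes are given beside them as a description. Of the 9 genes, 8 entered the tests. PSMB9 was under the minimum, and PSMB8 passed it only through its PA values, so that its lower level elsewhere came partly with the selection. In PA_Cur against PA, 2 of the 8 genes (HLA-B and TAP1) were lower and 0 higher, where 1.21% of all genes tested were called lower and 0.759% higher. The median log2 difference of the 8 was -0.23, beside -0.02 over all genes, and 7 of the 8 were below 0, beside 53.5% of all genes. In PA_Cur_Cu against PA the same 2 genes were lower and 0 higher, against 0.9% of all genes called lower and 0.543% higher, with a median of -0.29 beside -0.03 and 8 of 8 below 0 beside 56.1%. Both comparisons use the same 3 PA libraries and are not independent. In these bulk libraries fewer cells that carry a transcript and less of it per cell cannot be told apart.

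**Figure D2:**
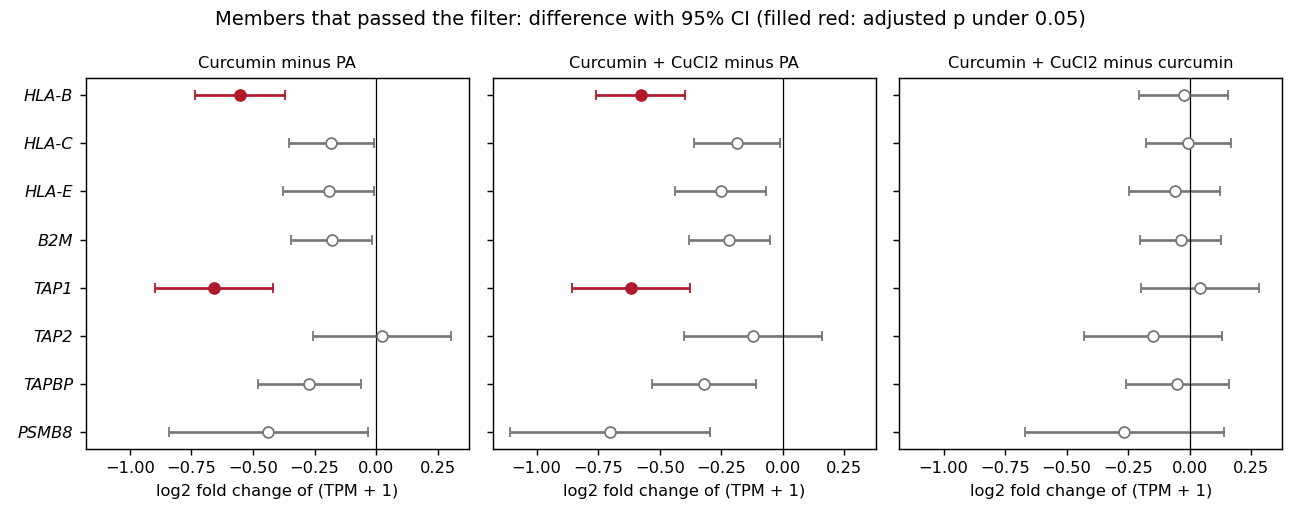
Log2 differences on the log2(TPM + 1) scale (x axis) of the 8 class I presentation genes that passed the minimum level, for PA_Cur against PA, PA_Cur_Cu against PA and PA_Cur_Cu against PA_Cur; points are estimates, lines are 95% confidence intervals, and filled red marks an adjusted p under 0.05. HLA-B and TAP1 lie at -0.66 to -0.55 in the comparisons with PA, and every interval spans 0 in the third panel.

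HLA-B, one of the classical heavy chain genes, was 149, 141 and 145 TPM in the PA libraries, 112, 92.6 and 92.4 in PA_Cur and 94.3, 98.2 and 98 in PA_Cur_Cu. All 6 libraries with curcumin stood below all 3 PA libraries, and PA_Cur replicate 1 was the highest of them. The mean was 145 ± 4.12 TPM in PA (SD, n = 3), 98.9 ± 11.1 in PA_Cur and 96.8 ± 2.22 in PA_Cur_Cu. HLA-B fell by 31.8% in PA_Cur, a log2 difference of -0.55 (SE 0.08, 95% interval -0.73 to -0.37, limma adjusted p = 0.0134), and by 33.2% in PA_Cur_Cu, a log2 difference of -0.58 (SE 0.08, interval -0.76 to -0.40, limma adjusted p = 0.0107). The first call was lost without PA_Cur replicate 3 (limma adjusted p = 0.0747) and in a fit of only the 2 groups (0.117). The second was lost on leaving out any 1 of the PA_Cur_Cu replicates (0.0743, 0.0555 and 0.0636).

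HLA-C was 252, 262 and 274 TPM in PA, 252, 214 and 229 in PA_Cur and 216, 232 and 245 in PA_Cur_Cu. The highest PA_Cur library, at 251.61 TPM, lay just under the lowest PA library, at 251.89, so that the groups did not overlap but touched. Its log2 difference was -0.18 in PA_Cur (SE 0.08, limma adjusted p = 0.330) and -0.19 in PA_Cur_Cu (SE 0.08, limma adjusted p = 0.314). HLA-E, a ligand of receptors on natural killer cells, was 46.5, 52.0 and 47.3 TPM in PA, 45.8, 42.6 and 39.1 in PA_Cur and 39.5, 41.8 and 40.5 in PA_Cur_Cu. Its 6 curcumin libraries were all below the PA libraries, with log2 differences of -0.19 (limma adjusted p = 0.336) and -0.25 (limma adjusted p = 0.190). Neither gene passed the test in either comparison.

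HLA-B was lower relative to HLA-C with curcumin, which is a description without a test. The ratio of HLA-B to HLA-C was 0.529 to 0.592 in the PA libraries and 0.400 to 0.444 in the 6 curcumin libraries. The sum of HLA-B, HLA-C and HLA-E was 447 to 466 TPM in PA, 350 to 409 in PA_Cur and 349 to 384 in PA_Cur_Cu.

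B2M, the light chain of every class I molecule, was 2263, 2314 and 1956 TPM in PA, 1917, 2010 and 1826 in PA_Cur and 1813, 1874 and 1916 in PA_Cur_Cu. PA replicate 3 was the low library of its group, and PA_Cur replicate 2 lay above it. The mean was 2178 ± 194 TPM in PA (SD, n = 3), 1918 ± 92.1 in PA_Cur and 1868 ± 51.9 in PA_Cur_Cu. The log2 differences of -0.18 (SE 0.07, limma adjusted p = 0.298) and -0.22 (SE 0.07, limma adjusted p = 0.205) did not pass. Without PA replicate 3, B2M and TAPBP were both called lower in PA_Cur (limma adjusted p = 0.0386 and 0.0375) and in PA_Cur_Cu (0.0288 and 0.0283). In these refits 3.05% and 2.62% of all genes were called lower, and the median log2 difference over all genes was -0.09 and -0.10. With the mitochondrial share as a covariate, B2M, TAPBP and PSMB8 were called lower in PA_Cur_Cu (0.0208, 0.0372 and 0.0434), where 5.02% of all genes were, and PSMB8 had entered the tests only through its PA values.

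TAP1 and TAP2, whose products form 1 peptide transporter, gave different values. TAP1 was 26.5, 31.6 and 25.8 TPM in PA, 17.2, 19.1 and 15.7 in PA_Cur and 17.4, 18.4 and 17.7 in PA_Cur_Cu. PA replicate 2 was the highest library, and all 6 curcumin libraries lay below every PA library. The mean was 28.0 ± 3.15 TPM in PA (SD, n = 3), 17.3 ± 1.72 in PA_Cur and 17.8 ± 0.533 in PA_Cur_Cu. TAP1 fell by 38.0% in PA_Cur, a log2 difference of -0.66 (SE 0.11, 95% interval -0.90 to -0.42, limma adjusted p = 0.0195), and by 36.3% in PA_Cur_Cu, a log2 difference of -0.62 (SE 0.11, interval -0.86 to -0.38, limma adjusted p = 0.0271).

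These TAP1 calls lay near the threshold. In PA_Cur the call was lost in a fit of only the 2 groups and on leaving out PA replicate 1 or 2, PA_Cur replicate 1 or 3, or PA_Cur_Cu replicate 2 or 3 (limma adjusted p = 0.05005 to 0.140). In PA_Cur_Cu it was lost in a fit of only the 2 groups, with no minimum level, and without PA replicate 1 or 2, PA_Cur replicate 1 or any 1 of the PA_Cur_Cu replicates (limma adjusted p = 0.0553 to 0.140). The estimate itself stayed between -0.73 and -0.56 in the first comparison and between -0.67 and -0.53 in the second over 20 alternative settings.

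TAP2 was 14.3, 13.3 and 15.1 TPM in PA, 17.2, 12.2 and 14.5 in PA_Cur and 12.6, 13.9 and 12.5 in PA_Cur_Cu. The 3 groups overlapped, and PA_Cur replicate 1 was the highest of the 9 libraries. The log2 difference was 0.03 in PA_Cur (95% interval -0.25 to 0.31, limma adjusted p = 0.968) and -0.12 in PA_Cur_Cu (interval -0.40 to 0.16, limma adjusted p = 0.763). The ratio of TAP1 to TAP2 was 1.71 to 2.37 in PA and 1.00 to 1.57 in the curcumin libraries. Across the 9 libraries the log2 values of TAP1 and TAP2 had a correlation of -0.00113, a description over libraries that share the 3 treatments. The corresponding value for HLA-B and TAP1 was 0.896 and for B2M and TAPBP 0.897, the highest of all pairs of the 9 genes. Pairs without TAP2 went down to 0.494 (HLA-C and PSMB8).

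TAPBP, which encodes tapasin, was 45.1, 41.2 and 35.6 TPM in PA, 34.9, 32.7 and 32.5 in PA_Cur and 31.8, 33.2 and 31.4 in PA_Cur_Cu. The groups with curcumin lay below PA without overlap, and PA replicate 3 was the PA library nearest to them. The mean was 40.6 ± 4.81 TPM in PA (SD, n = 3), 33.4 ± 1.35 in PA_Cur and 32.2 ± 0.949 in PA_Cur_Cu. The log2 differences of -0.27 (SE 0.09, limma adjusted p = 0.211) and -0.32 (SE 0.09, limma adjusted p = 0.143) did not pass.

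PSMB8 and PSMB9 were scarce in all groups. PSMB8, which takes the place of PSMB5, was 1.40, 1.68 and 1.95 TPM in PA, 0.67, 1.18 and 1.10 in PA_Cur and 0.85, 0.46 and 0.63 in PA_Cur_Cu. The groups did not overlap with PA, and the log2 differences were -0.44 (SE 0.18, limma adjusted p = 0.314) and -0.70 (SE 0.18, limma adjusted p = 0.0999). PSMB9, which takes the place of PSMB6, was 0.62, 0.58 and 0.40 TPM in PA, 0.29, 0.08 and 0.39 in PA_Cur, and 0.14, listed at 0, and 0.21 in PA_Cur_Cu. Fitted with no minimum level, its log2 differences were -0.30 (limma adjusted p = 0.474) and -0.46 (limma adjusted p = 0.214). At such low levels the log2(TPM + 1) scale shrinks differences, and the number of reads behind them is unknown.

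The constitutive subunits were far more abundant, and their means with curcumin lay above those of PA. PSMB5 was 306, 346 and 342 TPM in PA, 403, 403 and 398 in PA_Cur and 391, 409 and 411 in PA_Cur_Cu, without overlap. PSMB8 was 0.458% to 0.571% of PSMB5 in PA and 0.113% to 0.293% with curcumin, and PSMB9 was 0.107% to 0.212% of PSMB6 in PA and 0% to 0.0946% with curcumin. PSMB10, the remaining immunoproteasome subunit, was less scarce, at 12.8 to 21.2 TPM over the 9 libraries. It was 3.87% to 5.56% of PSMB7 in PA and 3.16% to 4.84% with curcumin, which overlapped. Of the 3 constitutive genes PSMB5, PSMB6 and PSMB7, 0 passed in either comparison, with median log2 differences of 0.28 and 0.27. With both curcumin groups set together against PA, a comparison described below, PSMB5 was higher by 0.28 (limma adjusted p = 0.0220); this call held in 11 of 19 alternatives and was lost with median-of-ratios scaling, with no variance trend, and without PA replicate 2, PA_Cur replicate 1 or 3, or any 1 of the PA_Cur_Cu replicates (limma adjusted p = 0.0523 to 0.0929). Of 5 other immunoproteasome and activator genes tested, 0 passed; PSMB10 (-0.04 and 0.09) and the activator subunits PSME1 and PSME2 were near 0, and the assembly factor POMP was at 0.35 and 0.40 (limma adjusted p = 0.189 and 0.135).

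**Figure D3:**
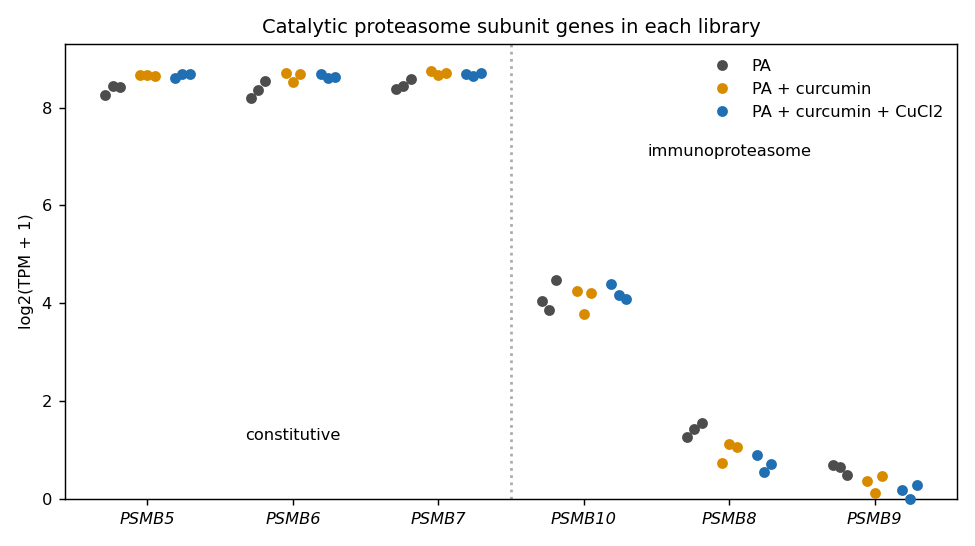
Log2(TPM + 1) (y axis) of the constitutive catalytic subunit genes PSMB5, PSMB6 and PSMB7 and of the immunoproteasome genes PSMB10, PSMB8 and PSMB9 (x axis) in the 9 libraries; points are libraries and colours are groups. PSMB8 and PSMB9 lie near the bottom of the scale, with the PA points above both curcumin groups, while the PSMB5 points lie in the opposite order (306 to 346 TPM in PA, 391 to 411 with curcumin).

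Groups that do not overlap were common among these genes in both comparisons with PA. Of the 8 genes tested, 6 had every PA_Cur library below every PA library (HLA-B, HLA-C, HLA-E, TAP1, TAPBP and PSMB8), where 8.61% of all genes tested did, and 7 had every PA_Cur_Cu library below every PA library (those 6 and B2M), where 10.3% did. At an unadjusted p under 0.05, 7 of the 8 were lower in each comparison, all but TAP2, where 7.79% of all genes were in PA_Cur and 7.97% in PA_Cur_Cu. PSMB9, outside the tests, did not overlap with PA either, narrowly so in PA_Cur (0.39 TPM at most, against 0.40 at least in PA). PSMB8 is among these counts although it entered the tests only through its PA values. The choice of the genes with earlier results known limits these counts too.

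Adding CuCl2 to curcumin gave 0 calls among the 8 genes with limma, 0 at an unadjusted p under 0.05 (1.6% of all genes), and 0 after adjustment among all 13443 genes (0% called). The difference between the PA_Cur_Cu and PA_Cur libraries had a 95% interval of -0.21 to 0.16 on the log2 scale for HLA-B (estimate -0.02), -0.20 to 0.28 for TAP1 (0.04), -0.18 to 0.17 for HLA-C (-0.01) and -0.20 to 0.13 for B2M (-0.04). TAP2, at -0.15 (interval -0.43 to 0.13), and PSMB8, at -0.27 (interval -0.67 to 0.14), had the widest intervals. The median over the 8 genes was -0.04, and 0 of them had non-overlapping groups, where 6.24% of all genes did in either direction. The intervals bound the difference that copper made beside curcumin, and they do not show that the treatments act alike.

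Because the curcumin groups stood so close, the mean of both was also set against PA, a comparison chosen after these data were seen. HLA-B fell by 32.5%, a log2 difference of -0.57 (SE 0.07, 95% interval -0.72 to -0.41, limma adjusted p = 0.00376), and TAP1 fell by 37.1%, a log2 difference of -0.64 (SE 0.09, limma adjusted p = 0.00766). These were again 2 of 8 genes, where 2.13% of all genes were called lower. The others were not called: TAPBP at -0.30 (limma adjusted p = 0.0870), PSMB8 at -0.57 (0.0877), B2M at -0.20 (0.130), HLA-E at -0.22 (0.135), HLA-C at -0.18 (0.188) and TAP2 at -0.05 (0.889). HLA-B and TAP1 passed in all 19 alternatives of this comparison, with adjusted p up to 0.0223 and 0.0426. Leaving out PA replicate 3 called 4 of the 8, adding B2M and TAPBP; 5.38% of all genes were then called lower, and the median over all genes moved from -0.02 to -0.09.

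The lists of related genes below were likewise chosen with earlier results of these data known. MR1, a class I-like gene whose product presents vitamin metabolites, was at -0.46 and -0.59 and did not pass (limma adjusted p = 0.338 and 0.210), and HLA-F and HLA-G averaged under 1 TPM. Of 8 other genes of peptide loading and trimming, 6 were tested. CALR, which encodes the chaperone calreticulin, was 1761, 1645 and 1773 TPM in PA, 1446, 1333 and 1402 in PA_Cur and 1438, 1424 and 1465 in PA_Cur_Cu. It was the 1 gene of the list lower in PA_Cur, at -0.31 (SE 0.05, limma adjusted p = 0.0268). In PA_Cur_Cu it was at -0.26 (0.0579). The call in PA_Cur held in 8 of 20 alternatives and was lost, among others, on leaving out any 1 library other than PA replicate 3 (limma adjusted p = 0.0566 to 0.117). PDIA3, its partner in the loading complex, was at -0.31 (0.0691) and -0.22 (0.179), and CANX and ERAP1 did not pass. With both curcumin groups together, CALR was at -0.28 (limma adjusted p = 0.0144, held in 14 of 19 alternatives) and PDIA3 at -0.26 (0.0485, held in 5 of 19).

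Of 12 regulators of class I transcription tested, 0 passed in PA_Cur and 1 in PA_Cur_Cu. That gene was IRF9, the DNA-binding subunit of the complex formed after type I interferon, at 36.5, 60.6 and 40.3 TPM in PA, 28.9, 18.7 and 19.6 in PA_Cur and 12.8, 20.1 and 23.1 in PA_Cur_Cu. Its log2 difference was -1.26 (SE 0.26, limma adjusted p = 0.0496) in PA_Cur_Cu and -0.99 (0.0958) in PA_Cur, and the call held in 6 of 20 alternatives. It was lost, among others, on leaving out any 1 library other than PA replicate 3 (limma adjusted p = 0.0504 to 0.179 over the alternatives that lost it). IRF1 was at -0.67 (0.338) and -0.91 (0.179), with PA replicate 2 at 52.2 TPM far above the others. NLRC5 was 11.8, 14.4 and 9.33 TPM in PA, 10.7, 11.1 and 11.2 in PA_Cur and 7.15, 11.5 and 9.37 in PA_Cur_Cu, with overlapping groups and differences of -0.08 (0.915) and -0.32 (0.501). RELA and NFKB1, subunits of NF-kB, lay between -0.29 and -0.21 and did not pass.

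PA replicate 2 was the highest PA library for HLA-E, B2M, TAP1, IRF1, IRF9 and NLRC5, and PA replicate 3 the lowest for B2M, TAP1, TAPBP and IRF1. Beyond the values given without single libraries, the part of these libraries in the results was not tested.

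Of 33 other interferon-stimulated genes 23 were tested, with 5 lower in PA_Cur (1.21% of all genes were) and 6 in PA_Cur_Cu (0.9% of all genes), 0 higher in either, and medians of -0.60 and -0.77. IFIT1, an RNA-binding antiviral protein, was 59.2, 64.6 and 44.3 TPM in PA, 25.7, 24.3 and 22.5 in PA_Cur and 22.3, 25.2 and 25.7 in PA_Cur_Cu. It fell by 1.16 and 1.15 on the log2 scale (limma adjusted p = 0.00398 and 0.00527) and passed in all 20 alternatives, as did IFIT3 at -1.07 and -1.10 (0.00266 in both). IFIT2, IFI44 and IFIH1 were the others lower in both, and RIGI, an RNA sensor, was at -1.06 in PA_Cur_Cu (limma adjusted p = 0.0406) and at -0.93 in PA_Cur (0.0556). The calls of IFIT2, IFI44, IFIH1 and RIGI held in 8 to 12 of the 20 alternatives each. All were lost without PA replicate 1, without PA replicate 2, in a fit of only the 2 groups and with no minimum level, and each also on leaving out several of the curcumin libraries (limma adjusted p = 0.0506 to 0.179 over the calls lost). With both curcumin groups together 9 were lower (2.13% of all genes were), IRF7, PARP9 and SAMD9 among them (-1.41, -1.07 and -0.92; limma adjusted p = 0.0407, 0.0366 and 0.0443, held in 9 of 19, 8 of 19 and 7 of 18 alternatives). Whether these genes differed more than HLA-B and TAP1 did was not tested. The interferon genes themselves were all under the minimum: IFNG and IFNL2 were listed at 0 in all 9 libraries and IFNB1 was 0 to 0.45 TPM. Of 8 genes of interferon receptors and their signalling tested, 0 passed.

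**Figure D4:**
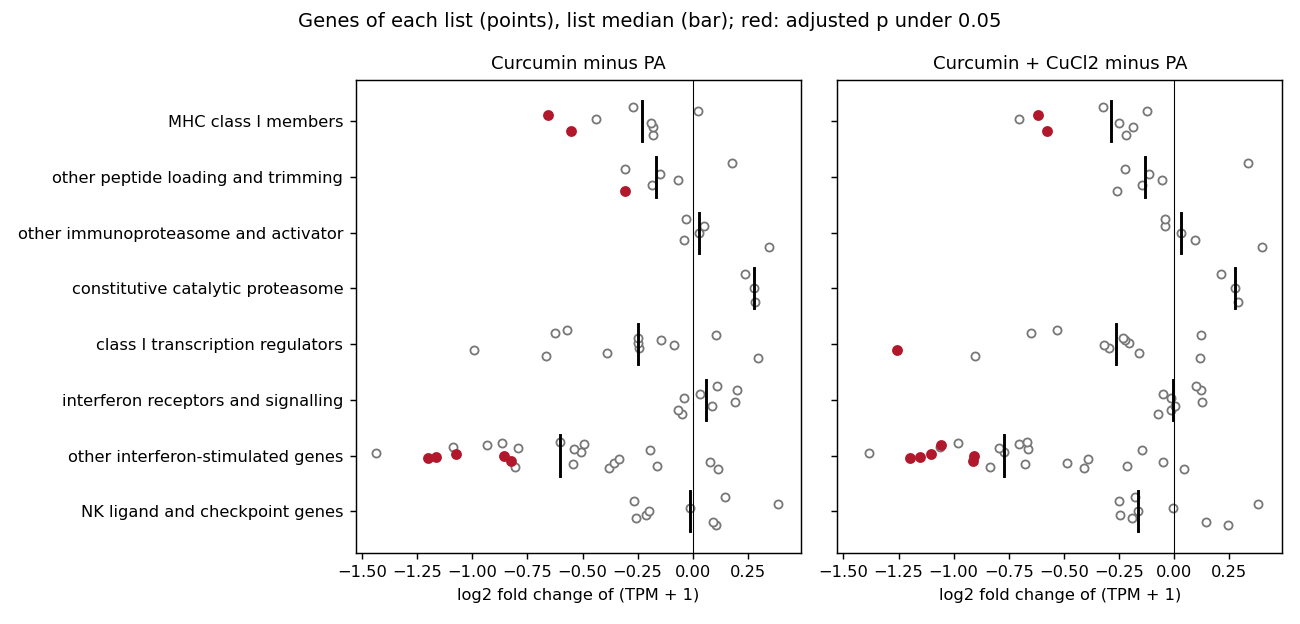
Log2 differences on the log2(TPM + 1) scale (x axis) of the tested genes of each list (y axis), 1 panel for each comparison with PA; points are genes, red marks an adjusted p under 0.05 and the black bar is the list median. The class I presentation genes centre at -0.23 and -0.29, the constitutive proteasome genes at 0.28 and 0.27 and the other interferon-stimulated genes at -0.60 and -0.77.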

How the data were processed

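The values were TPM, deposited by the authors as 1 table of 62703 genes by 9 libraries; per the submitters' processing notes, HISAT2 2.1.0, RSEM 1.3.3 and the build GRCh38.p13 were used, and the annotation release is not given in the sources used here. Library preparation used a stranded mRNA kit, per the labels' protocols. TPM keeps no depth, so no count model or counting interval was used. Columns were matched to samples by name.

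Values were taken as log2(TPM + 1), and the 13443 genes averaging 1 TPM or more across the 9 libraries were kept, holding 99.7% of the TPM (1120 without a symbol). Group means were fitted to all 9 libraries together with limma 3.58.1 in R 4.3.3, with a variance trend and two-sided tests. Benjamini-Hochberg adjustment ran over these 13443 genes, and the threshold was 0.05. The procedure was tested on simulated data. Fold changes on this scale understate those of low genes. The 3 comparisons between groups, and the mean of both curcumin groups against PA, added after seeing the data, share libraries. By rule the text names the 9 class I genes, genes of the other lists that passed or had the largest differences, any gene of the lists on class I machinery, its regulators and interferons, and the genes with the most similar profiles; some genes so chosen are not reported here. Members and lists were chosen with earlier results of these data known. The 20 alternative settings covered pseudocount, minimum level, scaling, mitochondrial genes, model terms, repeated symbols and leaving out each library. Same-numbered libraries of different groups did not deviate together (correlations of deviations -0.27 to 0.25), so replicate numbers were not taken as pairs. Promoter letters were read from RefSeq windows with Python 3.11.15.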

Additional observations from a re-analysis of the deposited data

How the results depend on the processing

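Over the 20 alternative settings, no called log2 difference of a class I presentation gene changed sign. In PA_Cur against PA the number of genes called (2) was the same in 12 alternatives, fell to 0 in a fit of only the 2 groups, which has fewer libraries, and ranged from 0 to 4 on leaving out 1 library. In PA_Cur_Cu against PA the 2 calls were the same in number in 10 alternatives. They became 1 with no minimum level, 1 in a fit of only the 2 groups and 5 with the mitochondrial share as a covariate. On leaving out 1 library they ranged from 0 to 4. The fit of only the 2 groups used fewer libraries, and the fit with no minimum level tested more genes. The cause of the changed counts was not tested. PA_Cur_Cu against PA_Cur gave 0 calls in all 20. With both curcumin groups against PA, the mitochondrial covariate raised the count from 2 to 6, where 7.12% of all genes were called lower. The count became 3 with median-of-ratios scaling (2.34% of all genes lower) and 2 to 4 on leaving out 1 library (0.722% to 5.38%). The main fit of that comparison called 2.13% lower, and a fit of only 2 groups was not run there. On leaving out 1 library, 0.231% to 3.05% of all genes were called lower in PA_Cur and 0.171% to 2.62% in PA_Cur_Cu. The counts of 5 and 6 include PSMB8, which entered the tests only through its PA values. A replicate block left 2 calls in each comparison with PA. Genes called over the whole table numbered 264 in PA_Cur and 194 in PA_Cur_Cu, but 35 and 65 in a fit of only the 2 groups and 1505 and 1436 with the mitochondrial share as a covariate. Differences near 0 that changed sign, none called, were those of TAP2 in PA_Cur (-0.0213 with the mitochondrial covariate, -0.0887 to 0.141 on leaving out 1 library) and with both groups (-0.106 to 0.0090 on leaving out 1 library). Between the curcumin groups they were HLA-C (0.0046 with median-of-ratios scaling, -0.0596 to 0.0551 on leaving out 1 library), HLA-B (-0.0707 to 0.0651) and TAP1 (-0.0233 to 0.111). Levels without mitochondrial genes were 1.12 to 1.14 times those given. Depth is unknown, which limits PSMB8 and PSMB9 most.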

Other observations

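MHC class II genes, which present peptides to CD4+ T cells and belong to professional antigen-presenting cells, were nearly silent in these libraries. Of 10 listed, HLA-DMA was the 1 tested, at 2.31 to 4.40 TPM with overlapping groups. HLA-DRA, HLA-DRB1, HLA-DPB1, HLA-DQA1 and HLA-DQB1 were listed at 0 in all 9 libraries, the transactivator gene CIITA was 0.07 to 0.19 TPM and the invariant chain gene CD74 was 0.13 to 0.71 TPM. Genes of ligands for natural killer cells and of checkpoint proteins gave 0 calls among 9 tested, with median log2 differences of -0.01 in PA_Cur and -0.16 in PA_Cur_Cu. ULBP1, a ligand of the receptor NKG2D, had the largest difference, at 0.38 in both (limma adjusted p = 0.512 and 0.523). MICA and CD274 were named for their roles after their values were seen. MICA, a stress-induced ligand of the same receptor, was 107 to 122 TPM in PA, 121 to 126 in PA_Cur and 120 to 134 in PA_Cur_Cu. CD274, which encodes PD-L1, was listed at 0 to 0.49 TPM.

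For the genes considered, log2 values over the 9 libraries were compared with the mean of the 8 tested class I genes. The closest were HDGF (Pearson correlation 0.988), RASSF1 (0.986), OASL (0.980) and RIGI (0.974). RIGI was listed as DDX58 and is among the interferon-stimulated genes above. HDGF, a growth factor gene, was 528 to 570 TPM in PA, 442 to 481 in PA_Cur and 421 to 447 in PA_Cur_Cu. OASL, an interferon-stimulated gene, was 64.8 to 67.4 TPM in PA, 35.8 to 47.5 in PA_Cur and 32.9 to 37.5 in PA_Cur_Cu. The genes nearest to TAP1 were TXNIP (0.979), FGF2 (0.970), AAAS (0.970) and IFIT1 (0.969), and TXNIP, a regulator of cellular redox state and glucose uptake, was 35.1 to 51.6 TPM in PA, 16.8 to 22.6 in PA_Cur and 18.7 to 21.3 in PA_Cur_Cu. Those nearest to B2M were PLIN3 (0.988) and PPP1R10 (0.981). These correlations are descriptions over libraries that share 3 treatments. The genes were picked from the highest among the 8193 genes considered. Those had a plain symbol, a mean of at least 5 TPM and no place among the class I genes. Symbols were screened by their form, and not every gene with a symbol at that level was considered. The genes named are therefore the closest of those considered only.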
